A study of Sus scrofa with 8 samples.

Results

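Motile cilia axoneme genes are the genes whose products build, assemble or regulate the beating axoneme of motile cilia. They were chosen here by symbol and not by any measured value. The families taken were the axonemal dynein heavy chains, intermediate chains and light chains, the dynein arm assembly factors, the radial spoke heads, the cilia and flagella associated proteins (CFAP) and the tektins. SPAG6, SPAG16, SPAG17, FOXJ1, HYDIN, CCDC39, CCDC40 and TPPP3 were added by name. This gave 89 of the 25880 pig genes in the count table, of which 84 were paired with their symbol through a name table and 5 (HYDIN, DNALI1, CFAP69, DNAH3 and DNAH8) by their position. PIFO and CFAP47 had no matching identifier, so they are not analysed here. Other symbols that the rule would take are also absent, among them DNAH6, DNAAF2, DNAAF3, CFAP53 and TEKT4. Counts of genes in a family below are thus of the matched genes and not of complete families. The genes lay on 16 chromosomes, with 12 of them on chromosome 6, and their exon length in the count table had a median of 3661 bases.

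They were measured by bulk mRNA sequencing of olfactory epithelium from 8 newborn piglets, in a study of the molecular pathology of smell loss in cystic fibrosis. The CFTR-knockout group held piglets 6, 18, 20 and 21, which are CFTR-null, and the wild-type group held piglets 5, 9, 12 and 23. The CFTR protein is an epithelial anion channel whose loss causes cystic fibrosis. The labels name neither litter nor sex nor a sequencing batch, and they do not say how the CFTR gene was disrupted.

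A motile axoneme is a ring of microtubule doublets around a central pair. Outer and inner dynein arms on the doublets make the doublets slide, radial spokes and the central apparatus regulate the arms, and proteins inside the doublets stabilise them. FOXJ1 is the transcription factor that switches on the genes of this machinery. In the nose, beating cilia are carried by the multiciliated cells of the respiratory mucosa, whereas the cilia of mammalian olfactory neurons serve odorant detection and are generally regarded as non-motile.

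Library totals ranged from 39915150 to 43253395 reads in CFTR-knockout piglets and from 30836904 to 42281883 reads in wild-type piglets. CFTR, which checks the labels, averaged 6.84 ± 1.36 CPM (read counts scaled to library size) in CFTR-knockout piglets and 40.3 ± 10.9 CPM in wild-type piglets (SD, n = 4 each), and it was the only gene of 17175 tested that edgeR's quasi-likelihood test called at a Benjamini-Hochberg adjusted p under 0.05 (log2 fold change -2.56 ± 0.21 SE, adjusted p = 0.0121). The library of knockout piglet 18 stood apart: the summed level of 14 bone and connective tissue genes was 47202 CPM there, against 1969 to 2954 CPM in the other knockout piglets and 2317 to 6269 CPM in wild-type piglets. Markers of mature olfactory neurons were abundant in every library, their 24 matched genes summing to 10623 to 13161 CPM in CFTR-knockout piglets and 7556 to 12680 CPM in wild-type piglets. All CPM values below are scaled by TMM, the trimmed mean normalization of edgeR, and fold changes are CFTR knockout over wild type.

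No motile cilia axoneme gene was called between the genotypes. Of the 89 genes, 87 passed edgeR's filter on low counts, and edgeR called 0 of them, where 0.00582% of all genes tested were called. DESeq2 called 0 of them (background 1.28%), and so did limma with voom (background 0.064%). At an unadjusted edgeR p under 0.05, 1 of the 87 genes was lower in CFTR-knockout piglets (RSPH1) and 0 were higher, where 11.2% of all genes tested passed. The smallest adjusted p among the 87 genes was 0.396 by edgeR.

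The CFTR-knockout and wild-type values overlapped for all 87 genes, where 5.8% of all genes tested did not overlap. With 1 library left out, fewer values have to separate, so the count can rise. Without knockout piglet 6, 18, 20 or 21 it was 2, 5, 0 or 4, and without wild-type piglet 5, 9, 12 or 23 it was 7, 1, 2 or 4. The share of all genes that did not overlap also differed with the library left out, between 6.79% and 16.7%.

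Most estimated differences were small. The log2 fold changes ran from -1.02 (CFAP141) to 0.84 (DNAH8) with a median of 0.03, beside a median of 0.01 over all genes tested. Of the 87 genes, 49 had a positive fold change (56.3%, background 51.6%). The 95% interval of the fold change lay within 1 of 0 on the log2 scale for 78 of the 87 genes, where 74.8% of all genes tested had so narrow an interval, and within 0.5 of 0 for 48. For those 78 genes, a change of 1 on the log2 scale in either direction lay outside the interval.

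The summed level of the 89 genes was 3163, 2965, 3660 and 3571 CPM in knockout piglets 6, 18, 20 and 21, against 3186, 3259, 3206 and 3298 CPM in wild-type piglets 5, 9, 12 and 23. The 4 wild-type sums lay between the lower pair and the higher pair of knockout sums. The means were 3340 ± 331 CPM in CFTR-knockout piglets and 3237 ± 51.0 CPM in wild-type piglets, a ratio of 1.03. In bulk tissue, a different number of ciliated cells and a different amount of RNA per cell cannot be told apart. Among the 87 tested genes, knockout piglet 20 had the highest value in 29 and the lowest in 1, and knockout piglet 18 had the highest value in 3 and the lowest in 27.

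**Figure D1:**
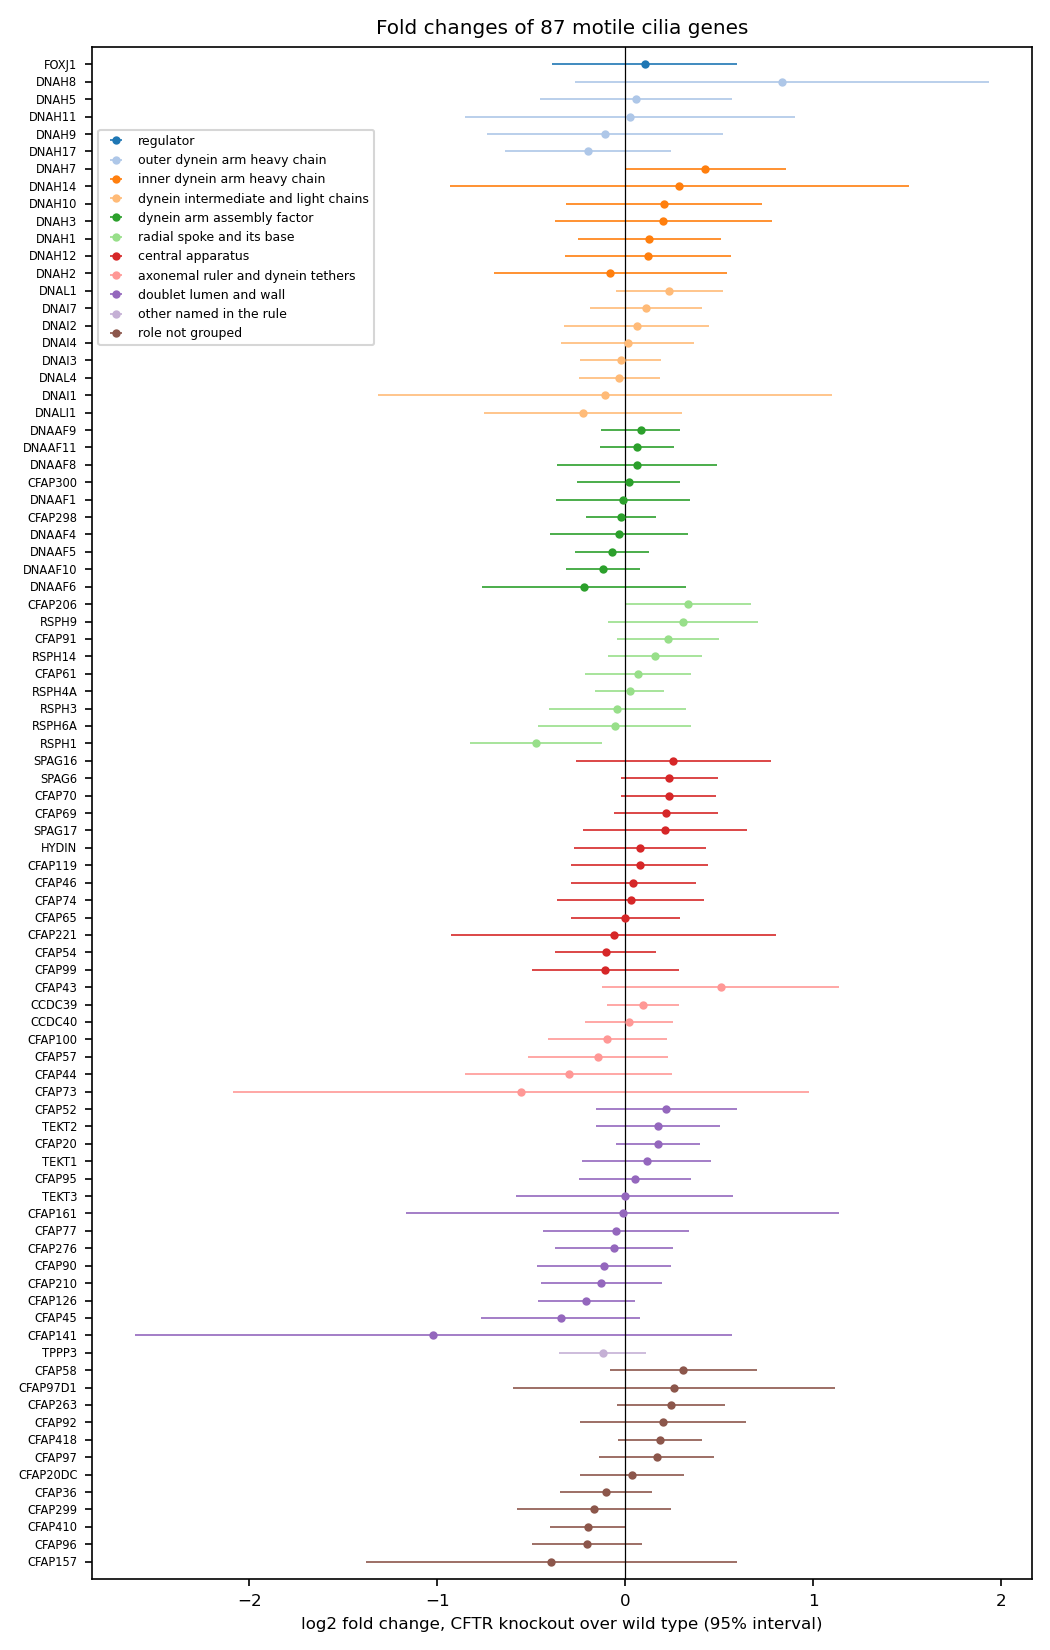
Log2 fold change, CFTR knockout over wild type, of the 87 tested motile cilia genes, ordered by role, with points for the edgeR estimate and bars for the 95% interval. The estimates run from -1.02 to 0.84, and RSPH1 is the only gene with an unadjusted p under 0.05.

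Levels of different genes were compared only per length, as the mean CPM over 8 libraries per kilobase of exon. CFAP69 was the most abundant at 94.8 CPM per kilobase, followed by CFAP126 at 64.4, CCDC39 at 29.8 and FOXJ1 at 28.3. The heavy chains were low on this scale, at 4.87 for DNAH9 and 3.75 for DNAH5. At the other end, TEKT5, a tektin known from sperm flagella, had 0 reads in every library, where a count of 3 corresponds to 0.0683 to 0.0836 CPM in CFTR-knockout libraries and 0.0698 to 0.0949 CPM in wild-type libraries. CFAP107 had 1 to 6 reads in CFTR-knockout libraries and 0 to 9 reads in wild-type libraries. These limits cover counting error only. Of the 89 genes, 84 averaged at least 1 CPM.

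**Figure D2:**
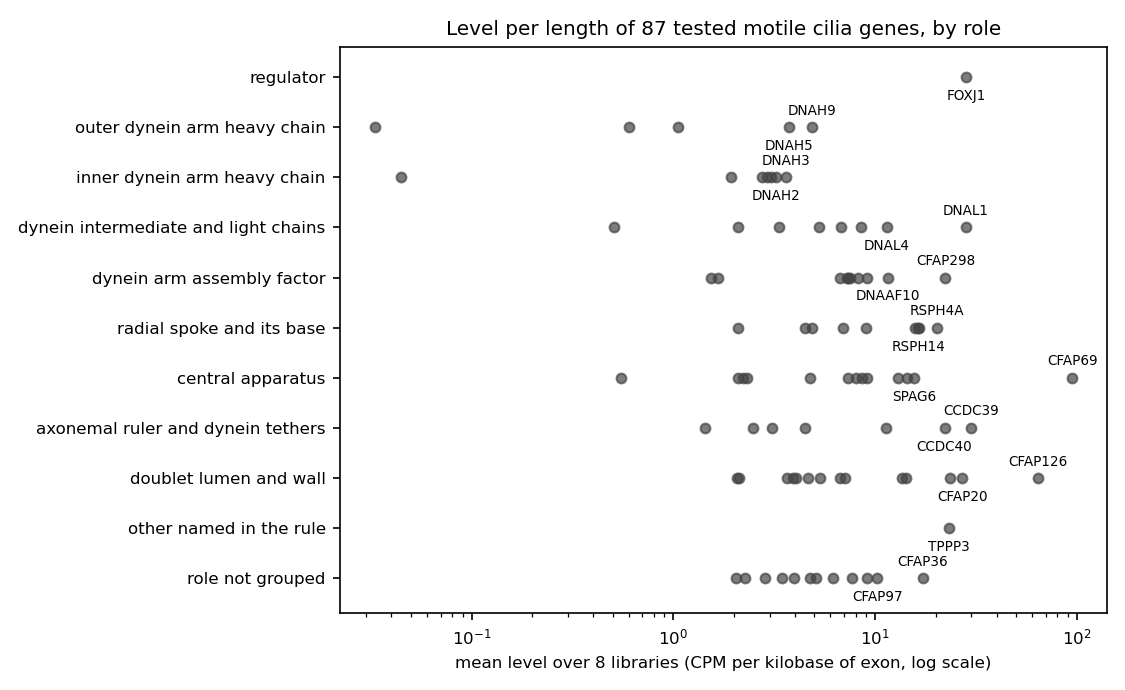
Mean level over the 8 libraries of each of the 87 tested motile cilia genes, in CPM per kilobase of exon on a log scale, by role, with named genes labelled. CFAP69 at 94.8 and CFAP126 at 64.4 are the highest, and the dynein heavy chains are at 4.87 or lower.

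FOXJ1 (ENSSSCG00000017187, chromosome 12, 5307131 to 5312250, plus strand, build not given in the sources used here) had 104, 60.2, 79.3 and 104 CPM in knockout piglets 6, 18, 20 and 21, against 96.0, 88.8, 53.4 and 85.1 CPM in wild-type piglets 5, 9, 12 and 23. The lowest values came from wild-type piglet 12 and knockout piglet 18, and the groups overlapped over most of their range. The means were 86.9 ± 21.3 CPM in CFTR-knockout piglets and 80.8 ± 18.8 CPM in wild-type piglets (log2 fold change 0.11 ± 0.22 SE, edgeR adjusted p = 0.860).

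The outer dynein arm heavy chains are the motors that drive ciliary beating. DNAH5 (ENSSSCG00000032827, chromosome 16, 3116189 to 3364956, minus strand), which is present along the whole axoneme, had 44.6, 38.9, 67.7 and 60.2 CPM in knockout piglets 6, 18, 20 and 21, against 71.3, 43.2, 49.4 and 39.1 CPM in wild-type piglets 5, 9, 12 and 23. DNAH9 (ENSSSCG00000018015, chromosome 12, 56045448 to 56358016, plus strand), the partner of DNAH5 in the distal axoneme, had 47.6, 40.7, 93.0 and 71.3 CPM in the knockout piglets, against 94.996, 68.8, 55.3 and 53.4 CPM in the wild-type piglets. In both genes wild-type piglet 5 and knockout piglet 20 were the highest, knockout piglet 18 was the lowest, and the groups overlapped. The log2 fold changes were 0.06 ± 0.23 (SE, edgeR adjusted p = 0.927) for DNAH5 and -0.11 ± 0.28 (edgeR adjusted p = 0.887) for DNAH9.

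DNAH11, the proximal partner of DNAH5, varied 3.24-fold between its highest and lowest library. It had 10.6, 7.86, 24.1 and 14.8 CPM in knockout piglets 6, 18, 20 and 21, against 21.6, 14.5, 7.42 and 12.8 CPM in wild-type piglets 5, 9, 12 and 23. Knockout piglet 20 and wild-type piglet 5 were again high, and the lowest values were shared by wild-type piglet 12 and knockout piglet 18. DNAH17 and DNAH8, which are the outer arm chains known from sperm, were lower: DNAH17 averaged 7.40 ± 1.39 CPM in CFTR-knockout piglets and 8.49 ± 1.72 CPM in wild-type piglets, and DNAH8 averaged 0.603 ± 0.179 CPM in CFTR-knockout piglets and 0.334 ± 0.230 CPM in wild-type piglets. DNAH8 had the highest fold change of all 87 genes, 0.84 ± 0.49 on the log2 scale (SE), and was not called (edgeR adjusted p = 0.513). DNAH11, DNAH17 and DNAH8 were named after their values were seen.

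The inner dynein arm heavy chains, which shape the ciliary bend, had positive fold changes in 6 of 7 genes, with a median of 0.20 on the log2 scale, and none was called. DNAH7 came closest. It had 33.3, 32.4, 51.9 and 33.5 CPM in knockout piglets 6, 18, 20 and 21, against 34.6, 22.5, 30.6 and 24.7 CPM in wild-type piglets 5, 9, 12 and 23. Knockout piglet 20 stood above all others, and wild-type piglet 5 lay above the other 3 knockout piglets. The log2 fold change was 0.43 ± 0.19 (SE, edgeR adjusted p = 0.447).

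DNAH2 and DNAH3, the inner arm chains with the highest levels per length, differed less between the groups. DNAH2 had 25.9, 31.4, 62.9 and 44.4 CPM in knockout piglets 6, 18, 20 and 21, against 56.8, 46.3, 35.8 and 35.1 CPM in wild-type piglets 5, 9, 12 and 23 (log2 fold change -0.08 ± 0.27 SE, edgeR adjusted p = 0.918). DNAH3 averaged 47.0 ± 10.9 CPM in CFTR-knockout piglets and 40.9 ± 14.8 CPM in wild-type piglets (log2 fold change 0.20 ± 0.26 SE, edgeR adjusted p = 0.756). In DNAH2 the knockout piglets held both the highest and the lowest value, and in DNAH3 both extremes were wild-type piglets.

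The 12 heavy chains varied between piglets more than the other genes. Their highest library exceeded the lowest by a median of 2.28 times, against 1.51 times for the other tested genes of the axoneme and 1.65 times over all genes tested. Their summed level was 301, 279, 505 and 390 CPM in knockout piglets 6, 18, 20 and 21, against 449, 324, 334 and 283 CPM in wild-type piglets 5, 9, 12 and 23. Knockout piglets 20 and 21 and wild-type piglet 5 were high, and the means were 369 ± 103 CPM in CFTR-knockout piglets and 348 ± 71.1 CPM in wild-type piglets. All 10 heavy chains with at least 1 CPM lay above their own mean over 8 libraries in knockout piglet 20, 9 of them did in knockout piglet 21 and 8 in wild-type piglet 5, against 1 in knockout piglet 18 and 1 in wild-type piglet 23. Of the 74 other tested axoneme genes with at least 1 CPM, 53 lay above their own mean in knockout piglet 20 and 61 in knockout piglet 21. In wild-type piglet 5 it was 36 of the 74, in knockout piglet 18 it was 12 and in wild-type piglet 23 it was 38.

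These are very long transcripts, so the same measure was taken over 411 other genes with at least 10000 exon bases. Their median deviation from the mean of 8 libraries, on the log2 scale, was 0.16 in knockout piglet 20, -0.05 in knockout piglet 21 and 0.05 in wild-type piglet 5, where the 10 heavy chains had 0.51, 0.15 and 0.32. In the other libraries the long genes had -0.04 in knockout piglet 6, 0.04 in knockout piglet 18, -0.13 in wild-type piglet 9, 0.06 in wild-type piglet 12 and -0.12 in wild-type piglet 23. The heavy chains had -0.18, -0.26, -0.12, -0.12 and -0.22 in the same libraries. The 74 other axoneme genes had -0.03, -0.17, 0.14 and 0.10 in knockout piglets 6, 18, 20 and 21. In wild-type piglets 5, 9, 12 and 23 they had -0.02, 0.02, -0.04 and 0.004. Knockout piglet 20 was thus the highest library in each of these sets of genes, by the largest margin in the heavy chains. The higher values in knockout piglet 21 and the lower values in knockout piglet 18 were shared by the heavy chains and the other axoneme genes. The part of transcript length in the heavy-chain values was not tested.

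**Figure D3:**
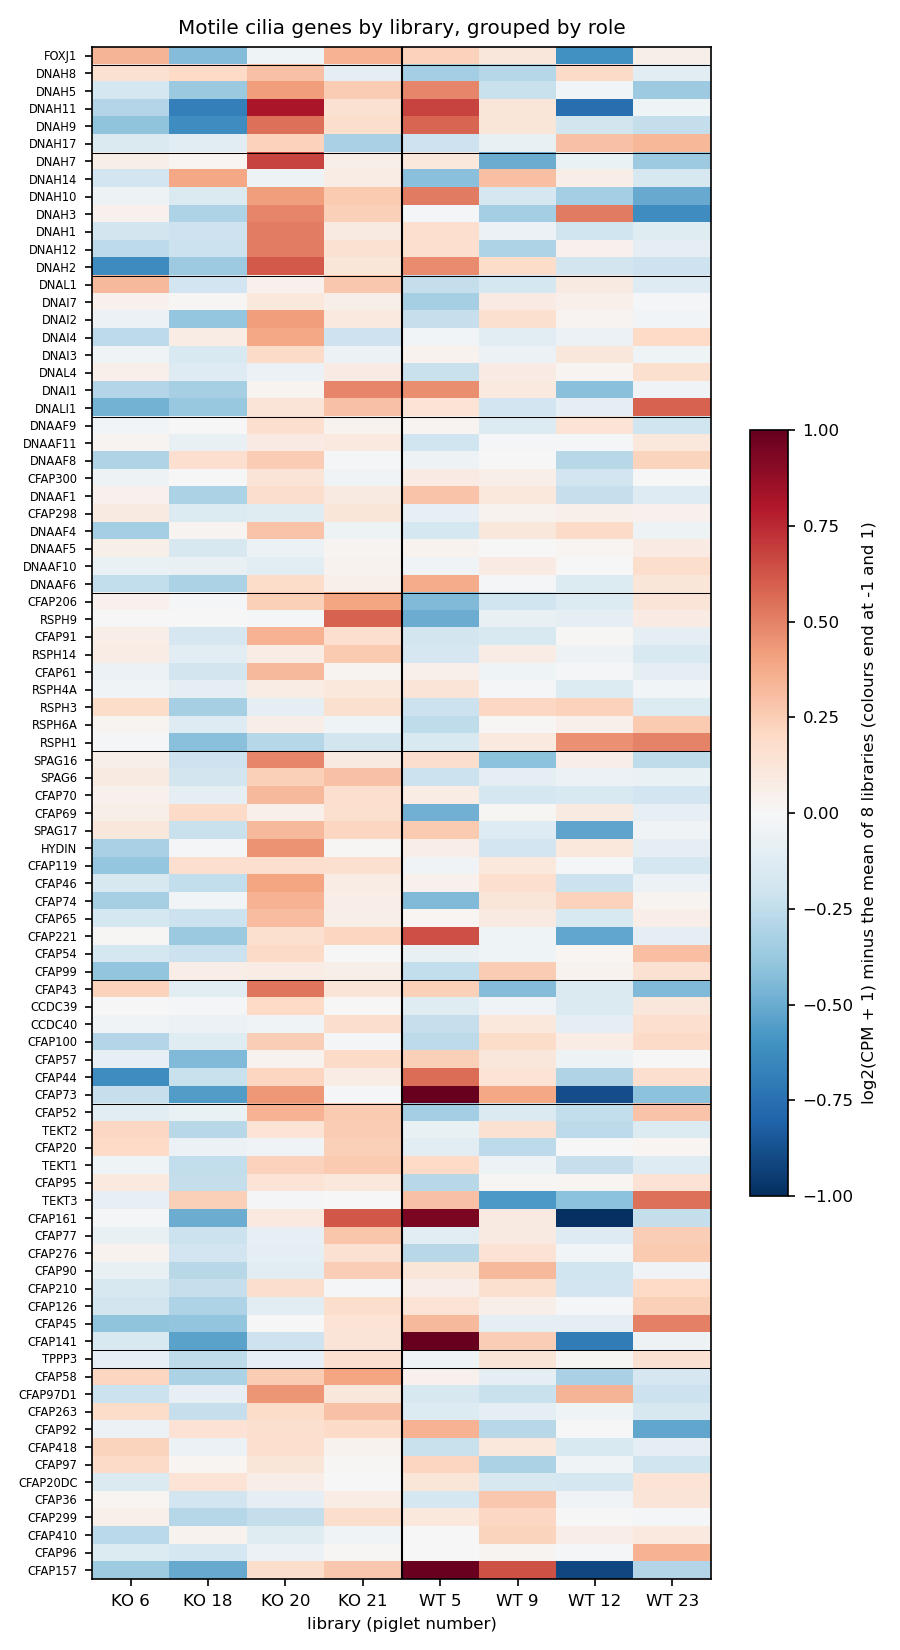
Log2(CPM + 1) of each tested motile cilia gene minus its mean over the 8 libraries, with knockout piglets in the left columns, wild-type piglets in the right columns and genes grouped by role. The heavy chains are mostly above their mean in knockout piglets 20 and 21 and wild-type piglet 5, and no block of genes separates the genotypes.

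The intermediate and light chains, which anchor and regulate the motors, had a median fold change of -0.01 on the log2 scale over 8 genes, 4 of them positive. DNAL1, an outer arm light chain, had 203, 142, 168 and 196 CPM in knockout piglets 6, 18, 20 and 21, against 137, 144, 173 and 149 CPM in wild-type piglets 5, 9, 12 and 23. Knockout piglets 6 and 21 were above every wild-type piglet, and the other knockout piglets were within the wild-type range (log2 fold change 0.24 ± 0.13 SE, edgeR adjusted p = 0.488). DNAL4, a light chain, averaged 69.3 ± 4.69 CPM in CFTR-knockout piglets and 70.8 ± 7.88 CPM in wild-type piglets. DNAI1, an outer arm intermediate chain, and DNALI1, an inner arm light intermediate chain, share 53.4% and 53.0% of their exon bases with ENHO and GNL2 on the opposite strand, and without a stated strand setting reads of such partners cannot be told apart.

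The assembly factors, which fold and preassemble dynein arms in the cytoplasm, varied least of the 8 roles with several genes, with a median of 1.28 times between the highest and lowest library. Their 10 genes summed to 265 ± 12.7 CPM in CFTR-knockout piglets and 264 ± 3.91 CPM in wild-type piglets (SD, n = 4 each). CFAP298, the most abundant of them per length, had 84.9, 72.3, 73.1 and 87.04 CPM in knockout piglets 6, 18, 20 and 21, against 75.4, 81.7, 82.5 and 82.3 CPM in wild-type piglets 5, 9, 12 and 23. The wild-type values lay inside the knockout range, and the 95% interval of the log2 fold change was -0.21 to 0.17. DNAAF10 averaged 22.4 ± 1.05 CPM in CFTR-knockout piglets and 24.3 ± 1.70 CPM in wild-type piglets, which differed by -0.12 ± 0.09 on the log2 scale (SE, edgeR adjusted p = 0.594).

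Radial spokes carry signals from the central apparatus to the dynein arms. RSPH1 (ENSSSCG00000040224, chromosome 13, 205806686 to 205827204, minus strand), a spoke head protein, had 54.7, 41.3, 45.3 and 48.8 CPM in knockout piglets 6, 18, 20 and 21, against 49.7, 59.4, 76.3 and 78.7 CPM in wild-type piglets 5, 9, 12 and 23. All knockout piglets except piglet 6 were below every wild-type piglet, and piglet 6 was above wild-type piglet 5. The log2 fold change was -0.47 ± 0.16 (SE), with a 95% interval of -0.83 to -0.12, and was not called (edgeR adjusted p = 0.396).

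RSPH4A, another spoke head protein, had nearly level values of 64.7, 62.2, 69.8 and 71.2 CPM in knockout piglets 6, 18, 20 and 21, against 72.8, 65.5, 60.2 and 65.0 CPM in wild-type piglets 5, 9, 12 and 23. The groups overlapped (log2 fold change 0.02 ± 0.08 SE, edgeR adjusted p = 0.916). RSPH6A, its paralogue known from sperm, was 2.08 CPM per kilobase, where RSPH4A was 20.2. CFAP206, a protein of the spoke base, averaged 23.8 ± 3.31 CPM in CFTR-knockout piglets and 18.9 ± 3.24 CPM in wild-type piglets (log2 fold change 0.33 ± 0.15 SE, edgeR adjusted p = 0.447). RSPH14 averaged 20.6 ± 2.28 CPM in CFTR-knockout piglets and 18.5 ± 1.56 CPM in wild-type piglets. Of the 9 spoke genes, 6 had positive fold changes and RSPH1 alone a p under 0.05.

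The central apparatus had 10 positive fold changes among 13 genes, with a median of 0.08 on the log2 scale and none called. Its summed level was 895 ± 105 CPM in CFTR-knockout piglets and 831 ± 49.3 CPM in wild-type piglets (SD, n = 4 each). HYDIN (ENSSSCG00000040973, named by position, chromosome 6, 13895493 to 14233941, minus strand), a very large central pair protein, had 154, 191, 265 and 196 CPM in knockout piglets 6, 18, 20 and 21, against 203, 169, 209 and 182 CPM in wild-type piglets 5, 9, 12 and 23. Knockout piglets held both the lowest and the highest value (log2 fold change 0.08 ± 0.16 SE, edgeR adjusted p = 0.851). SPAG6, which bridges central apparatus components, averaged 32.6 ± 4.77 CPM in CFTR-knockout piglets and 27.6 ± 1.40 CPM in wild-type piglets, and CFAP70 averaged 35.8 ± 4.54 CPM in CFTR-knockout piglets and 30.5 ± 2.88 CPM in wild-type piglets. Their log2 fold changes were 0.24 ± 0.11 and 0.23 ± 0.11 (SE), and neither was called (edgeR adjusted p = 0.462 for both).

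CFAP69 (ENSSSCG00000015303, named by position, chromosome 9, 70373747 to 70430273, plus strand) is a central apparatus protein that in mouse is also found in olfactory neuron cilia, where it affects the time course of odour responses. It had 277, 304, 275 and 297 CPM in knockout piglets 6, 18, 20 and 21, against 190, 268, 283 and 251 CPM in wild-type piglets 5, 9, 12 and 23. Wild-type piglet 5 was far the lowest, and wild-type piglet 12 was within the knockout range (log2 fold change 0.22 ± 0.12 SE, edgeR adjusted p = 0.505). The 24 markers of mature olfactory neurons summed to 12779, 10623, 11835 and 13161 CPM in the same knockout piglets, against 7556, 9940, 12680 and 10905 CPM in the same wild-type piglets, and were also lowest in wild-type piglet 5. The 2 orders differed elsewhere, since CFAP69 was highest in knockout piglet 18, where the marker sum was the lowest of the knockout piglets. Wild-type piglet 5 was also the lowest library in 19 of the 87 tested axoneme genes, and in 2769 of all 17175 genes tested. The part of neuron content in the CFAP69 values was not tested.

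The ruler proteins CCDC39 and CCDC40 set the repeat along the doublet to which inner arms and spokes attach. CCDC39 (ENSSSCG00000011768, chromosome 13, 118626330 to 118682281, minus strand) had 119, 117, 137 and 119 CPM in knockout piglets 6, 18, 20 and 21, against 109, 116, 107 and 128 CPM in wild-type piglets 5, 9, 12 and 23. Knockout piglet 20 was above all others and the remaining values overlapped (log2 fold change 0.10 ± 0.08 SE, edgeR adjusted p = 0.648). CCDC40 averaged 105 ± 8.51 CPM in CFTR-knockout piglets and 104 ± 13.1 CPM in wild-type piglets. CFAP73, an inner arm tether, was rare and uneven, with 1.34, 0.864, 2.71 and 1.73 CPM in the knockout piglets, against 5.65, 2.59, 0.483 and 1.07 CPM in the wild-type piglets. Both its highest and its lowest value were wild-type, and 32.9% of its exon bases are shared with DDX54 on the opposite strand.

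Among the 14 tested genes of the doublet lumen and wall, 5 had positive fold changes, with a median of -0.03 on the log2 scale. CFAP126, also called Flattop and linked to basal body positioning in mouse, had 34.8, 31.9, 36.9 and 45.0 CPM in knockout piglets 6, 18, 20 and 21, against 43.7, 41.3, 39.4 and 46.9 CPM in wild-type piglets 5, 9, 12 and 23. Knockout piglet 21 lay within the wild-type range and the other knockout piglets below it (log2 fold change -0.21 ± 0.11 SE, edgeR adjusted p = 0.504). CFAP20, an inner junction protein, averaged 79.4 ± 8.52 CPM in CFTR-knockout piglets and 70.3 ± 6.15 CPM in wild-type piglets. CFAP45, a lumenal protein, averaged 21.3 ± 4.27 CPM in CFTR-knockout piglets and 27.1 ± 5.87 CPM in wild-type piglets, which differed by -0.34 ± 0.19 on the log2 scale (SE, edgeR adjusted p = 0.496).

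TPPP3, a tubulin-binding protein, had 228, 203, 228 and 272 CPM in knockout piglets 6, 18, 20 and 21, against 235, 265, 243 and 269 CPM in wild-type piglets 5, 9, 12 and 23. The groups overlapped (log2 fold change -0.12 ± 0.10 SE, edgeR adjusted p = 0.635), and 16.9% of its exon bases are shared with other genes, among them ZDHHC1. Of the 12 genes that were given no role here, CFAP410 averaged 39.6 ± 3.58 CPM in CFTR-knockout piglets and 45.4 ± 3.03 CPM in wild-type piglets (log2 fold change -0.20 ± 0.09 SE, edgeR adjusted p = 0.449). CFAP263 averaged 20.4 ± 3.21 CPM in CFTR-knockout piglets and 17.2 ± 0.671 CPM in wild-type piglets, and CFAP96 averaged 10.6 ± 0.660 CPM in CFTR-knockout piglets and 12.2 ± 1.70 CPM in wild-type piglets.

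**Figure D4:**
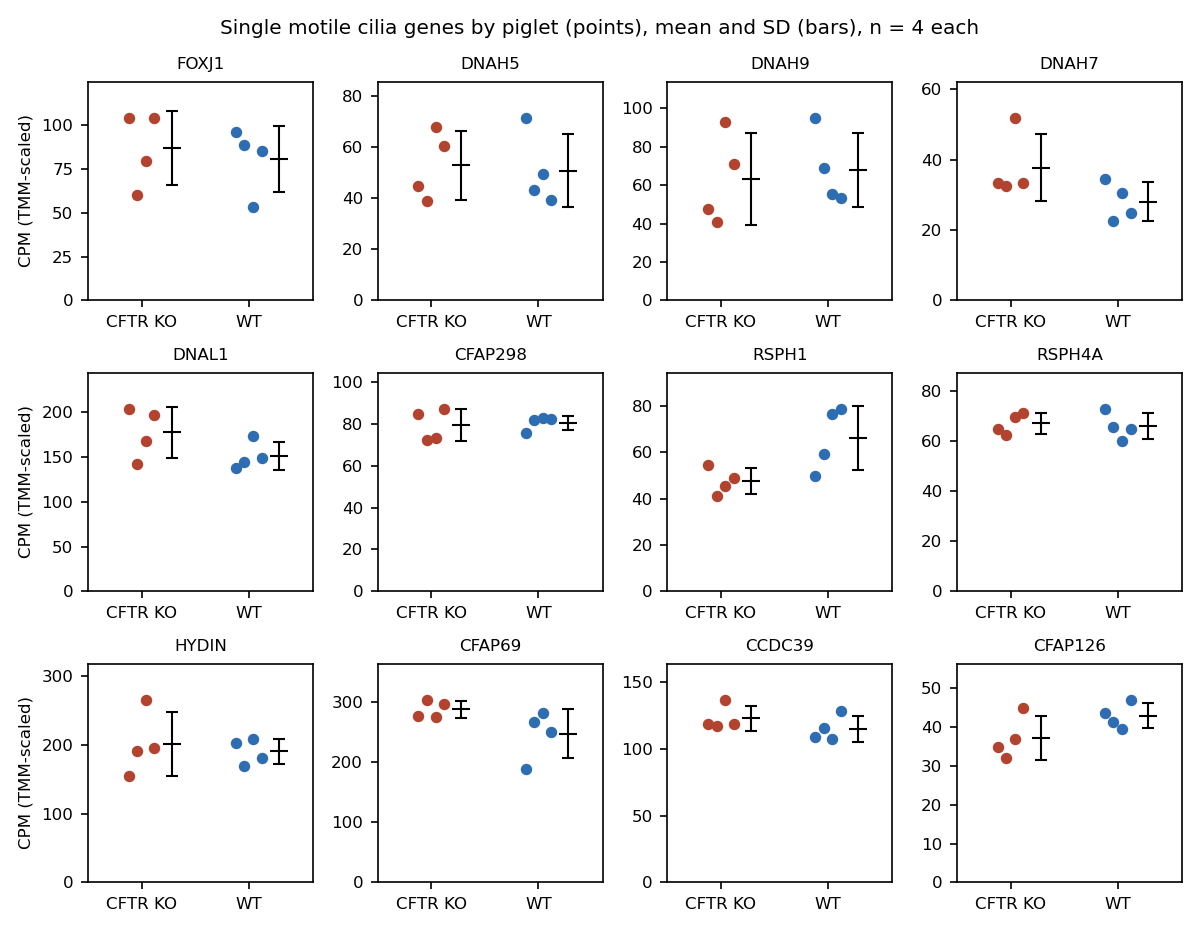
CPM of 12 motile cilia genes in each piglet (points), with CFTR knockout left of wild type and the mean and SD as bars (n = 4 each). The groups overlap in every panel, and RSPH1 is the gene with the smallest p, at 47.5 ± 5.69 CPM in CFTR-knockout piglets and 66.0 ± 13.8 CPM in wild-type piglets.

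The 3 most variable of the tested axoneme genes by the SD of log2(CPM + 1) over the 8 libraries were CFAP73, CFAP161 and CFAP157. They differed widely between piglets of the same group. CFAP157, a protein known from mouse sperm flagella, had 5.72, 5.07, 8.75 and 9.36 CPM in knockout piglets 6, 18, 20 and 21, against 16.03, 12.4, 3.58 and 6.03 CPM in wild-type piglets 5, 9, 12 and 23. CFAP161, a lumenal protein, had 3.39, 2.15, 3.74 and 5.82 CPM in the knockout piglets, against 7.52, 3.73, 1.21 and 2.77 CPM in the wild-type piglets. In both, as in CFAP73 above, wild-type piglet 5 was the highest and wild-type piglet 12 the lowest, with knockout piglet 18 next to it. The highest library exceeded the lowest 4.48 times in CFAP157, 6.23 times in CFAP161 and 11.7 times in CFAP73. These 3 genes had log2 fold changes of -0.39 ± 0.44, -0.01 ± 0.51 and -0.56 ± 0.68 (SE), so the spread between piglets exceeded the difference between the groups.

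Wild-type piglet 5 was the highest library, and wild-type piglet 12 and knockout piglet 18 the lowest pair, in 7 of the 87 tested genes (CFAP73, CFAP141, CFAP157, CFAP161, CFAP221, DNAAF1 and RSPH4A). This order was chosen after the values were seen and carries no test. It was found in 8.05% of the tested axoneme genes and in 1.04% of all genes tested. Among 61 other tested motile cilia genes it was found in 7, a share of 11.5%. These 7 were ARMC3, CDHR3, DRC7, GMNC, MCIDAS, SNTN and TTLL9, of which MCIDAS and GMNC switch on multiciliated cell differentiation and SNTN lies at the tip of airway cilia. SNTN had 3.17, 1.34, 3.99 and 5.63 CPM in knockout piglets 6, 18, 20 and 21, against 6.59, 4.55, 0.918 and 2.95 CPM in wild-type piglets 5, 9, 12 and 23. CDHR3, a cadherin of airway ciliated cells, had 3.64, 1.39, 5.17 and 5.75 CPM in the knockout piglets, against 11.2, 4.93, 0.0967 and 2.95 CPM in the wild-type piglets.

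The 16 matched genes of respiratory secretory cells summed to 1105, 949, 1121 and 1185 CPM in knockout piglets 6, 18, 20 and 21, against 2397, 1472, 913 and 1628 CPM in wild-type piglets 5, 9, 12 and 23. Their sum too was highest in wild-type piglet 5 and lowest in wild-type piglet 12 and knockout piglet 18. Of the 14 secretory genes that were tested, 10 were highest in wild-type piglet 5, and 5 of these were lowest in wild-type piglet 12. Piglet 5 highest with piglet 12 lowest was thus found in 35.7% of them, in 6.90% of the tested axoneme genes and in 3.27% of all genes tested. It is looser than the order above, in which piglets 12 and 18 are the lowest pair. Among the tested secretory genes, only BPIFA1, MUC5B and SCGB3A1 had that stricter order. SPDEF and BPIFB1 were highest in knockout piglet 21, CREB3L1 in knockout piglet 18 and LCN2 in wild-type piglet 23. HYDIN, CCDC39 and FOXJ1 did not vary as widely: the highest library exceeded the lowest 1.72 times in HYDIN, 1.28 times in CCDC39 and 1.95 times in FOXJ1. The library order described above was not limited to rare genes. RSPH4A, at 20.2 CPM per kilobase, had it with a range of 1.21 times. FOXJ1 was also lowest in wild-type piglet 12 and knockout piglet 18, but highest in knockout piglet 21. The part of respiratory epithelium content in the values of the genes with this library order was not tested.

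**Figure D5:**
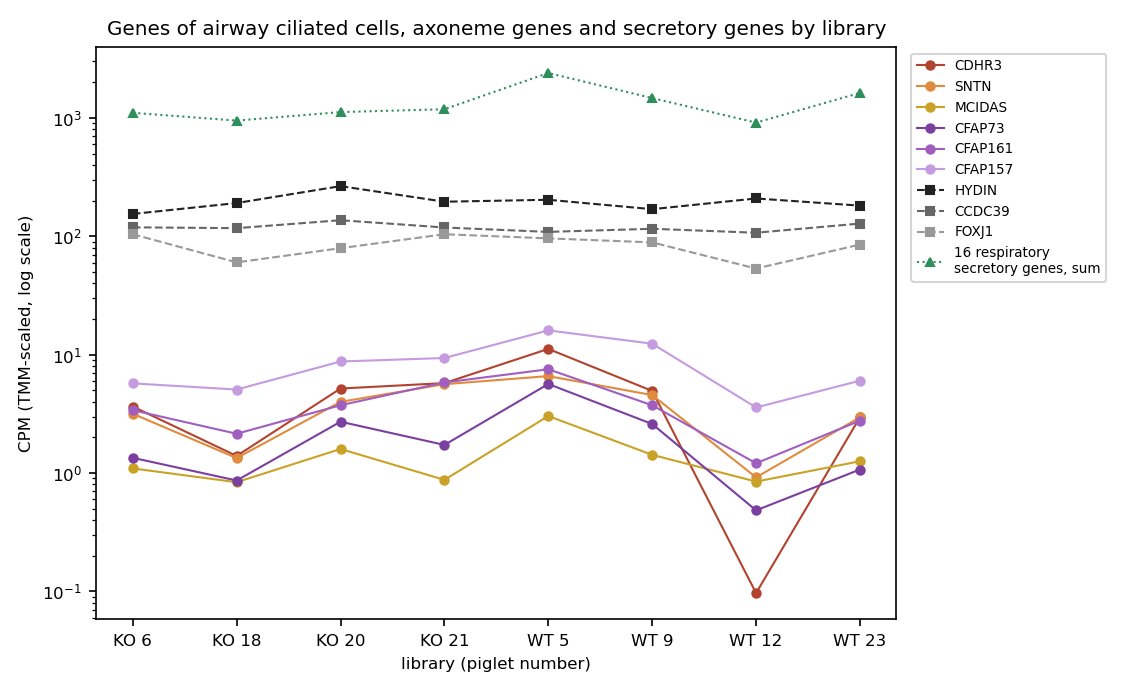
CPM on a log scale of 3 genes of airway ciliated cells (CDHR3, SNTN and MCIDAS), the 3 most variable axoneme genes (CFAP73, CFAP161 and CFAP157), HYDIN, CCDC39 and FOXJ1, and the sum of 16 respiratory secretory genes, in each library. The airway ciliated cell genes, the variable axoneme genes and the secretory sum peak in wild-type piglet 5 and dip in wild-type piglet 12 and knockout piglet 18. FOXJ1 is also lowest in wild-type piglet 12 and knockout piglet 18, and HYDIN and CCDC39 stay within 1.72 and 1.28 times across the 8 libraries.

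Other genes of the motile cilium that the symbol rule did not take came from a list of 72 symbols, of which 63 were matched and 61 tested. edgeR called 0 of the 61, 6 had an unadjusted p under 0.05 with higher values in CFTR-knockout piglets (background 5.4%) and 0 with lower values (background 5.8%). In 3 genes the groups did not overlap, all with higher knockout values (background 2.45%), and in 0 were all knockout values lower (background 3.35%). The median log2 fold change of the 61 genes was 0.05. DESeq2 called 2 of them, SPEF2 and LRRC23 (background 1.28%).

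SPEF2, a central apparatus protein, had 153, 118, 164 and 122 CPM in knockout piglets 6, 18, 20 and 21, against 92.7, 84.2, 97.8 and 112 CPM in wild-type piglets 5, 9, 12 and 23. LRRC23, a radial spoke protein, had 10.5, 12.1, 15.5 and 15.96 CPM in the knockout piglets, against 8.34, 6.04, 8.80 and 9.12 CPM in the wild-type piglets. In both genes every knockout piglet was above every wild-type piglet. The log2 fold changes were 0.53 ± 0.13 for SPEF2 and 0.74 ± 0.19 for LRRC23 (SE, edgeR adjusted p = 0.334 for both), and the DESeq2 adjusted p was 0.038 for SPEF2 and 0.025 for LRRC23. Both genes were named after their values were seen. Levels of HYDIN and RSPH4A, which belong to the same structures as SPEF2 and LRRC23, gave log2 fold changes of 0.08 ± 0.16 and 0.02 ± 0.08 (SE), and the difference between the genes was not tested.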

How the data were processed

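Per the labels, olfactory epithelium was dissected and frozen, and RNA was purified with DNase treatment for TruSeq mRNA libraries. The deposited table held unnormalized read counts per gene, in featureCounts layout per the file headers. The submitters' processing notes list STAR 2.4.0 and Subread 1.5.0-p3, besides featureCounts, HTSeq, DESeq2 and FastQC, without role or order. Genome build and strand setting are not given in the sources used here, so values of overlapping genes are uncertain. Labels give every library its own piglet. No 2 libraries of the same group agreed within sampling noise.

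Pig genes alone entered library sizes (at most 0.00182% of reads lay elsewhere). Symbols came from a name table (14857 identifiers) or from position (1516), where at least 50% of both spans overlapped in RefSeq Sscrofa11.1. Position gave 94.6% of 12601 known genes their own symbol.

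Counts were fitted with edgeR 4.0.16 in R 4.3.3 (quasi-likelihood test, TMM, default filter, 17175 genes, Benjamini-Hochberg at 0.05), tested on simulated data. Standard errors and 95% intervals came from the F statistic. DESeq2 1.42.0, limma 3.58.1 with voom and quality weights, other normalizations and filters, and omission of libraries were alternatives. The members and lists were chosen with earlier results of these data known. Named genes were those added by name, the 2 most abundant per length in each role and the 5 with the smallest p in each direction. The 3 with the largest SD of log2(CPM + 1) were also named. CFAP141 was named after its values were seen. Values of 1 other motile cilia gene are not reported here.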

Additional observations from a re-analysis of the deposited data

Results flagged for a closer look

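In 6 of the named genes, 1 piglet lay far from the other 3 of its group by Dixon's criterion. Chance meets this criterion in about 1 in 20 groups, or about 4.1 of the 82 groups examined, so 6 is close to that number. Knockout piglet 20 had 136.7 CPM of CCDC39, where the other knockout piglets had 117 to 119 CPM, and 51.9 CPM of DNAH7, where the others had 32.4 to 33.5 CPM. Knockout piglet 21 had 117.8 CPM of CCDC40, where the others had 99.6 to 102 CPM. Wild-type piglet 5 had 75.4 CPM of CFAP298, where the other wild-type piglets had 81.7 to 82.5 CPM, and 34.8 CPM of CFAP70, where the others had 28.7 to 29.6 CPM. Wild-type piglet 23 had 14.7 CPM of CFAP96, where the others had 11.2 to 11.6 CPM.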

How the results depend on the processing

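No axoneme gene was called by edgeR, DESeq2 or limma under any alternative run, and over 480 refits of 30 named genes the smallest adjusted p was 0.118. The median log2 fold change ran from -0.03 to 0.09 with 1 library left out, was -0.03 with library totals only (all genes -0.05) and 0.10 without wild-type piglet 5 and knockout piglet 18 (all genes 0.00). The count of genes without overlap was 0 to 7 with 1 library left out, beside the background range given above. It was 1 with library totals only (background 6.73%), 1 with upper-quartile factors (background 6.06%) and 14 without both of those piglets (background 19.3%). With library totals only, the summed level was 3286 CPM in CFTR-knockout piglets and 3304 CPM in wild-type piglets. DESeq2 called 2 of the other motile cilia genes.

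Log2 fold changes of single genes turned round, among them those of CFAP73 (-0.56) and CFAP157 (-0.39), which were not near 0. With library totals only, CCDC40 had -0.035 and RSPH4A -0.032. With limma, CCDC40 had -0.019, CFAP73 0.033, CFAP161 0.40 and CFAP298 0.0053. Without wild-type piglet 5 and knockout piglet 18, CCDC40 had -0.031, CFAP73 0.49, CFAP161 0.74, CFAP157 0.12, DNAH2 0.18 and DNAH9 0.25. With 1 library left out, the ranges were -0.058 to 0.083 for CCDC40, -0.31 to 0.55 for CFAP161, -0.068 to 0.019 for CFAP298, -0.90 to 0.27 for CFAP73, -0.36 to 0.089 for DNAH2, -0.085 to 0.26 for DNAH5, -0.36 to 0.087 for DNAH9, -0.11 to 0.021 for DNAL4, -0.053 to 0.25 for FOXJ1, -0.081 to 0.19 for HYDIN and -0.022 to 0.067 for RSPH4A. The cause was not tested. No paired analysis was possible because the piglet numbers in the labels are not shared between the groups. The median standard error was 0.16 on the log2 scale, and differences that lie within a gene's 95% interval, which is wider, are not resolved with 4 piglets a group.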
